A study of Homo sapiens with 4 samples.

Results

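The proteasome genes described here were the protein-coding genes of the deposited counts whose symbol is PSMA, PSMB, PSMC, PSMD, PSME, PSMF or PSMG followed by a number. There were 47 of them among 57820 gene identifiers, and 45 passed the filter on low counts that 17024 genes passed in all. PSMA8 and PSMB11, core subunits known from testis and thymus, had 0 counts in every library. PSMB3 was not analysed here, because no identifier of the files matched its current one. By role, 15 genes encode the core, PSMA8 and PSMB11 among them. Another 5 encode the immunoproteasome and its activator, 20 the regulatory particles and 7 the assembly factors. PSMD5, PSMD9 and PSMD10 were counted with the assembly factors.

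The study measured poly(A)-selected RNA of Daoy, an established human medulloblastoma cell line, in 4 libraries, to ask what changes when the chromatin remodelling subunit ARID1B is lowered. One library was labelled ARID1B shRNA, from a polyclonal population that carries a doxycycline-inducible ARID1B short hairpin RNA in a lentiviral vector. The other 3 libraries were labelled wild type, and by the series design they stem from parental or vector-only cells, without a label that tells which. Every library's label gives doxycycline at 1 µg/ml for 72 h. The shRNA arm has 1 library, so the wild-type libraries alone set the spread in each test, and a p-value reflects the spread of these libraries, which may be technical.

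The library labelled ARID1B shRNA held 8792848 reads in genes and the wild-type libraries 12619786 to 15390106. ARID1B itself stood at 175 CPM (the read count of a gene per 1000000 library-scaled reads) in the library labelled ARID1B shRNA, against 164, 88.0 and 72.9 CPM in wild type 1, 2 and 3, and so was not lower there. All directions below are therefore those of the library labelled ARID1B shRNA. Of 12 medulloblastoma and granule neuron precursor markers, 4 (ATOH1, BARHL1, EOMES and NEUROD1) stayed under 1 CPM in all 4 libraries. PAX6, ZIC1 and SFRP1 were measured in all 4. ZIC2 measured 24.8 CPM in the library labelled ARID1B shRNA, against 8.93, 10.6 and 8.14 CPM in wild type 1, 2 and 3. Its edgeR adjusted p was 0.0430, or 0.213 with the trends on length and GC content taken out. SFRP1 and GLI2 also lay above all wild-type libraries, OTX2 and MYCN below all of them, and PAX6, ZIC1 and GLI1 inside their range. Blood cells use immunoproteasome genes constitutively. Of 12 blood and immune markers 10 were under 1 CPM in every library, CD3E was at 0 throughout, and the summed level was 3.31 CPM in the library labelled ARID1B shRNA and 7.30 to 13.8 CPM in wild type.

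The proteasome is the protease that degrades proteins tagged with ubiquitin. Its core is a barrel of outer alpha rings, encoded by PSMA genes, and inner beta rings, encoded by PSMB genes, and 3 of the beta subunits cut peptide bonds. A regulatory particle of PSMC ATPases and PSMD subunits binds ubiquitin and unfolds the substrate, and dedicated chaperones join the pieces. Cells keep the subunits in balance, and when proteasome activity falls the transcription factor NFE2L1 raises many subunit genes together through antioxidant response elements in their promoters. Interferon replaces the catalytic subunits by the immunoproteasome set PSMB8, PSMB9 and PSMB10, which shapes peptides for MHC class I.

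Promoter stretches of 4 members are shown because they carry the letters through which these 2 kinds of control are known to act. They are RefSeq sequences of build GRCh38.p14, given 5′ to 3′ on the gene's strand. Capitals mark the interferon-stimulated response element (ISRE) core, GAAA, any 2 bases and GAAA, in the immunoproteasome genes PSMB10 (chr16:67936851-67936950, minus strand) and PSME2 (chr14:24146611-24146710, minus strand). They mark the antioxidant response element core TGACNNNGC in PSMD3 (chr17:39980707-39980806, plus strand), and its extended form, which adds A on either side, in PSMA4 (chr15:78540626-78540725, plus strand). The stretches run from base -100 to base -1 relative to the annotated start, and in PSMA4 from base -160 to base -61 relative to 1 of its annotated starts.
PSMB10: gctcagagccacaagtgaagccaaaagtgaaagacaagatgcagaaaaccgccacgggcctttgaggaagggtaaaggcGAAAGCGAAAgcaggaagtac
PSME2: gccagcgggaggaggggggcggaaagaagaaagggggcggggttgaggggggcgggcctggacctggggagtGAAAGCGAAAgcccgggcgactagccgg
PSMD3: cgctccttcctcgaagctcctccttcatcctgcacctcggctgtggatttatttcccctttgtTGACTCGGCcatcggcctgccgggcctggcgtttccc
PSMA4: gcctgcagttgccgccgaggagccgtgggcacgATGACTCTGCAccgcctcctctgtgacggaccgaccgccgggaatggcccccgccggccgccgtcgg

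The promoter table held 41 of the 47 genes, in 50 windows of 300 bases around annotated starts, with more than 1 window for 8 of the genes. A gene was counted as holding a motif where any of its windows did, for members and all genes alike. The ISRE core, searched on both strands, lay in the windows of 7 of them (17.1%), against 4.38% of all 27305 genes in the table. It was present in 4 of 5 immunoproteasome genes (PSMB8, PSMB10, PSME1 and PSME2), 2 of 11 core genes, 0 of 19 regulatory genes and 1 of 6 assembly genes. With the search kept to the 250 bases before each start it lay in 5 of the 41, of which PSMB10 and PSME2 were immunoproteasome genes. The antioxidant response element core lay in 14 (34.1%), against 16.1% of all genes. These were 1 of 11 core genes, 3 of 5 immunoproteasome genes, 6 of 19 regulatory genes and 4 of 6 assembly genes. The extended form of this element, which contains its core, lay in PSMA4 and PSMD3. The ETS core CCGGAAG lay in 15 (36.6%) against 12.2%, and 11 of those 15 were regulatory genes. The CCAAT box lay in 19 (46.3%) against 39.7%, and the GAS motif TTCNNNGAA in 8 (19.5%) against 9.38%. The C/EBP-ATF response element TGATGNAAT lay in 0 of the 41 genes and in 1.22% of all genes. These are matches of letters, and no binding was measured here.

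No proteasome gene passed the test between the library labelled ARID1B shRNA and the wild-type libraries. With edgeR's quasi-likelihood test and Benjamini-Hochberg adjustment over all 17024 genes, 0 of 45 tested members had an adjusted p below 0.05, where 4.48% of all tested genes did, 3.65% higher and 0.834% lower. DESeq2 and limma-voom also called 0 members, where they called 11.8% and 4.81% of the genes they tested. At an unadjusted p below 0.05 edgeR had 6 members, 2 higher and 4 lower, beside 25.4% of all tested genes. DESeq2 and limma-voom had 3 and 6 members at that level, beside 20.5% and 23.5% of all tested genes. At an edgeR adjusted p below 0.05 the count was 0 of 13 in the core and 0 of 5 in the immunoproteasome group. It was 0 of 20 in the regulatory group and 0 of 7 among the assembly factors.

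The fold changes of the members were small. The log2 fold change lay within 1.5-fold for 41 of 45 members (91.1%), against 59% of all tested genes, and 2 members, PSMB10 and PSMD9, reached 2-fold in the fitted value, as 23.1% of all tested genes did. The 95% interval of the log2 fold change lay wholly within 2-fold in either direction for 39 members (86.7%), against 33.9% of all tested genes, and for 41 members against 43.4% once smooth trends of the counts on gene length and GC content were taken out per library (trend removed). These intervals use edgeR's total degrees of freedom, which add to the 2 residual ones those borrowed across all tested genes. They also rest on the assumption that the lone library varies as the wild-type libraries do. Over the 45 members the median log2 fold change was -0.08, with quartiles of -0.32 and 0.05. Over all tested genes it was -0.05, with quartiles of -0.45 and 0.48. The members' standard errors were also smaller, with a median of 0.18 against 0.31. So was their median wild-type coefficient of variation, at 8.24% against 16.8%. The tested genes were not matched to the members for level or GC content.

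**Figure D1:**
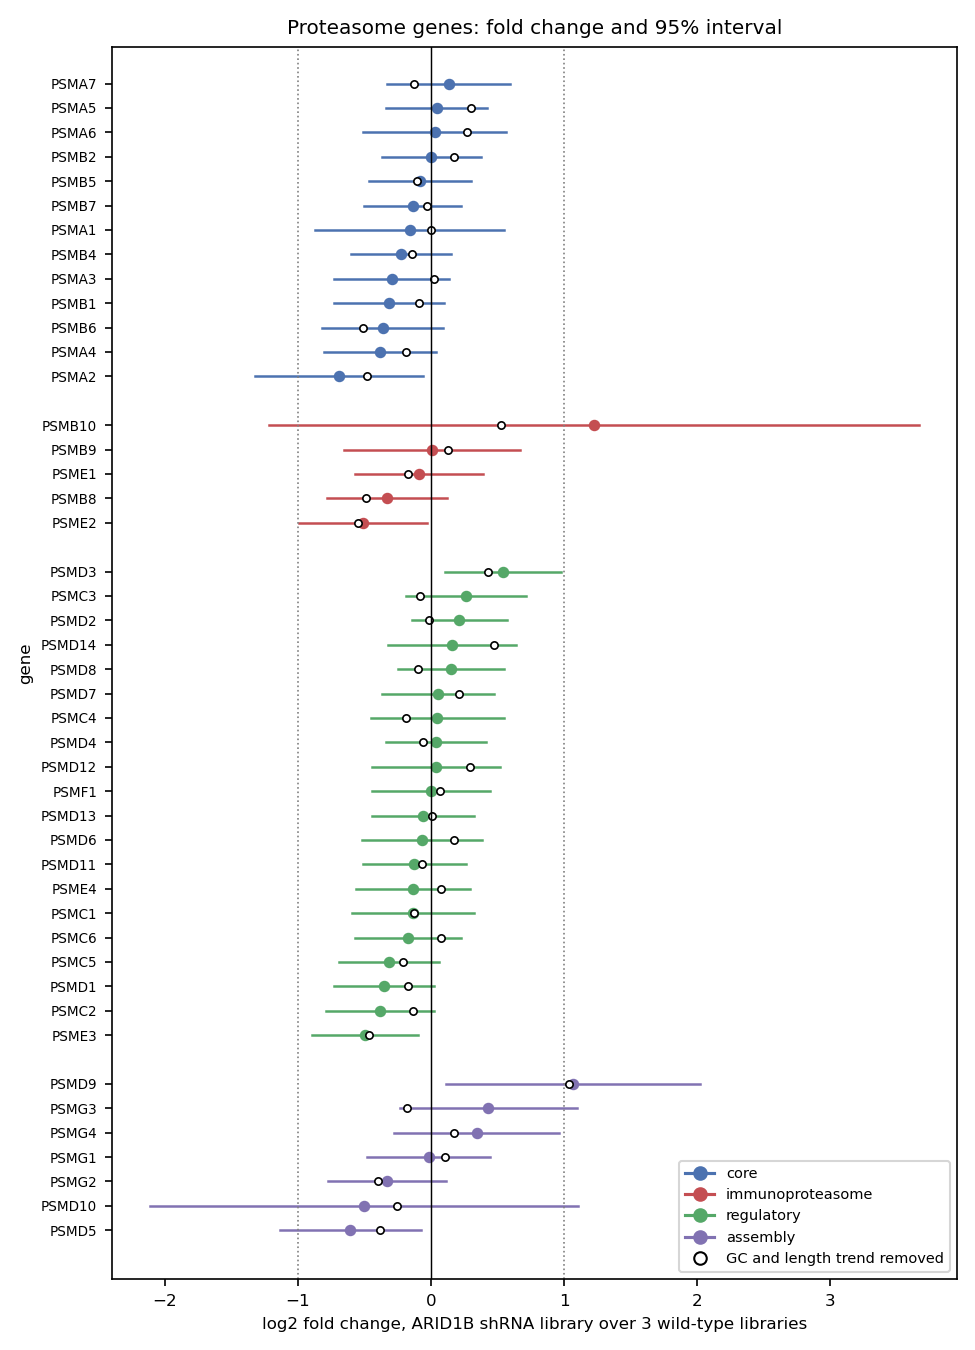
Log2 fold change of the library labelled ARID1B shRNA over the 3 wild-type libraries for 45 proteasome genes, by role; filled points and bars are the edgeR value and its 95% interval, open points the value after removal of the GC and length trend, and dotted lines mark 2-fold. Most intervals cross 0 and stay between the dotted lines, and PSMB10, PSMD10 and PSMD9 have the widest.

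The summed level of all members differed little between libraries. It was 9038 CPM in the library labelled ARID1B shRNA, against 9546, 9645 and 9536 CPM in wild type 1, 2 and 3. The library labelled ARID1B shRNA was thus the lowest, by 0.08 on the log2 scale against the wild-type mean. After trend removal the difference was -0.04, with 9239 CPM against 9399 to 9639 CPM, and it again lay below all 3. In these bulk libraries a lower level per cell and fewer cells that express a gene cannot be told apart.

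In the core, which forms the barrel, 0 of 13 genes had an edgeR adjusted p below 0.05, beside 4.48% of all tested genes. The log2 fold change lay below 0 for 9 of the 13. The summed core level was 2837 CPM in the library labelled ARID1B shRNA, against 3218, 3160 and 3113 CPM in wild type 1, 2 and 3, so the library labelled ARID1B shRNA was lowest. It was no longer lowest once the trend was removed, at 3029 CPM against 3241, 2975 and 3081 CPM. The group's median log2 fold change was -0.16, or -0.09 with the trend removed, against -0.05 and -0.08 over all tested genes. The alpha subunits had a median of -0.16 over 7 genes and the constitutive beta subunits of -0.18 over 6 genes.

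PSMA2, an alpha ring subunit, had the smallest p of the core. It measured 9.12 CPM in the library labelled ARID1B shRNA, against 15.0, 14.5 and 14.8 CPM in wild type 1, 2 and 3. The wild-type values lay close together and the library labelled ARID1B shRNA lay below all of them. Its log2 fold change of -0.69 had a standard error (SE) of 0.26 (edgeR adjusted p = 0.168). PSMA4, the alpha subunit with the extended element shown above, measured 209 CPM in the library labelled ARID1B shRNA, against 277, 290 and 251 CPM in wild type. It too lay below all wild-type libraries, with a log2 fold change of -0.39 (SE 0.17, edgeR adjusted p = 0.229), and -0.19 with the trend removed.

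The 3 constitutive catalytic subunits are PSMB5, which cuts after hydrophobic residues, PSMB6, which cuts after acidic ones, and PSMB7, which cuts after basic ones. PSMB5 measured 176 CPM in the library labelled ARID1B shRNA, against 190, 184 and 185 CPM in wild type 1, 2 and 3. PSMB6 measured 154 CPM, against 217, 178 and 197 CPM. PSMB7 measured 431 CPM, against 471, 481 and 472 CPM. All 3 lay below every wild-type library, PSMB7 no longer so with the trend removed. The log2 fold change was -0.08 for PSMB5, -0.36 for PSMB6 and -0.14 for PSMB7, at edgeR adjusted p of 0.771, 0.279 and 0.593. The 95% intervals ran from -0.46 to 0.30 for PSMB5, from -0.82 to 0.09 for PSMB6 and from -0.51 to 0.23 for PSMB7. The 2 core genes above all wild-type libraries were PSMA5, with 352 CPM in the library labelled ARID1B shRNA against 324 to 351 CPM, and PSMA7, with 226 CPM against 180 to 224 CPM. After trend removal PSMA7 turned from 0.13 to -0.13 and lay below all of them. PSMB2 had a log2 fold change of 0.00 (SE 0.15), with 343 CPM in the library labelled ARID1B shRNA and 343 ± 8.93 CPM in wild type (SD, n = 3). The other core genes PSMA1, PSMA3, PSMA6, PSMB1 and PSMB4 ranged from -0.31 (PSMB1) to 0.03 (PSMA6) on the log2 scale.

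In the immunoproteasome group 0 of 5 genes had an edgeR adjusted p below 0.05, beside 4.48% of all tested genes. PSME2, which with PSME1 forms the PA28 activator that opens the core gate, measured 104 CPM in the library labelled ARID1B shRNA, against 132, 148 and 165 CPM in wild type 1, 2 and 3. It lay below all of them, with a log2 fold change of -0.51 (SE 0.19, edgeR adjusted p = 0.177). Processed copies of PSME2 took few reads: PSME2P1 had 15 counts in the library labelled ARID1B shRNA and 44 to 58 in wild type, beside 912 and 1707 to 2528 counts of PSME2. PSME1 measured 112 CPM in the library labelled ARID1B shRNA, against 104, 125 and 128 CPM in wild type, and lay inside their range. The part in this group of the lower summed blood and immune markers in the library labelled ARID1B shRNA was not tested.

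The catalytic immunoproteasome subunits were read against the constitutive subunits they replace. PSMB8, which takes the place of PSMB5, measured 59.8 CPM in the library labelled ARID1B shRNA, against 72.0, 81.1 and 72.2 CPM in wild type 1, 2 and 3 (log2 fold change -0.33, SE 0.18, edgeR adjusted p = 0.312). The log2 ratio of PSMB8 to PSMB5 was -1.56 in the library labelled ARID1B shRNA and -1.31 ± 0.11 in wild type (SD, n = 3), lower than each wild-type library. PSMB9, which takes the place of PSMB6, measured 41.9 CPM in the library labelled ARID1B shRNA, against 37.7, 36.0 and 51.4 CPM. Its log2 ratio to PSMB6 was -1.87 in the library labelled ARID1B shRNA, against -2.53, -2.30 and -1.94 in wild type. It was higher there than in each wild-type library, by less than the distance between the wild-type libraries. The log2 ratio of PSMB10 to PSMB7 was -5.62 in the library labelled ARID1B shRNA, against -8.11, -8.28 and -5.90 in wild type, higher than in each. The 3 ratios did not move one way. With 1 library against 3 an exact permutation test cannot give a one-sided p under 0.25, so none was run.

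PSMB10, which takes the place of PSMB7, set the wild-type libraries apart. It measured 8.78 CPM in the library labelled ARID1B shRNA (95% Poisson interval 6.93 to 10.98, counting error only), against 1.71, 1.55 and 7.88 CPM in wild type 1, 2 and 3. Wild-type library 3 thus stood with the library labelled ARID1B shRNA, and the wild-type libraries differed 5.09-fold among themselves, the most of any tested member. The log2 fold change of 1.22 had an SE of 0.96 (edgeR adjusted p = 0.467). It was 2.42 with wild-type library 3 left out (edgeR adjusted p = 0.0648) and 0.88 with library 1 left out (0.617). The counts behind these levels were 77 in the library labelled ARID1B shRNA and 22, 20 and 121 in wild type. With the trend removed the levels were 5.78 CPM against 2.02, 2.06 and 7.58 CPM, so wild-type library 3 was then the highest.

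**Figure D2:**
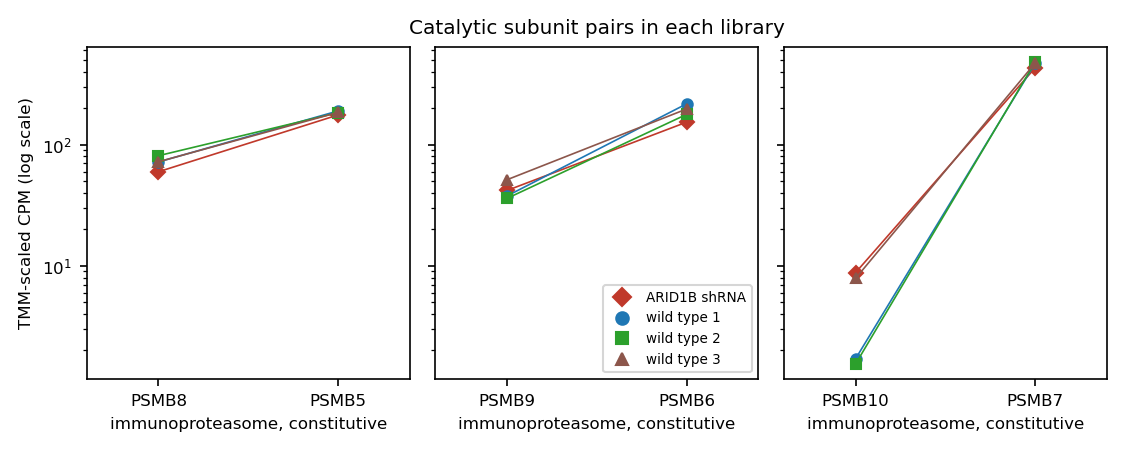
Levels of each catalytic immunoproteasome gene and the constitutive gene it replaces, in library-scaled CPM on a log axis; each colour and marker is 1 library, joined across the pair. PSMB8 and PSMB9 keep close levels in all 4 libraries, while PSMB10 is at 8.78 CPM in the library labelled ARID1B shRNA and 7.88 CPM in wild-type library 3, against 1.71 and 1.55 CPM in libraries 1 and 2.

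In the regulatory group 0 of 20 genes had an edgeR adjusted p below 0.05, beside 4.48% of all tested genes. The log2 fold changes ran from -0.50 to 0.54. The summed level was 5566 CPM in the library labelled ARID1B shRNA, against 5572, 5713 and 5690 CPM in wild type 1, 2 and 3. The 95% interval lay within 2-fold for all 20 genes, and 10 log2 fold changes lay on each side of 0. The 6 ATPases PSMC1 to PSMC6, which thread the substrate into the barrel, ranged from -0.38 (PSMC2) to 0.26 (PSMC3). With the trend removed these values were -0.13 and -0.08, and PSMC3 then lay below all wild-type libraries instead of above them. PSMC2 measured 389 CPM in the library labelled ARID1B shRNA, against 541, 506 and 473 CPM (edgeR adjusted p = 0.221). A processed copy, PSMC2P1, held 89 counts in the library labelled ARID1B shRNA and 155 to 167 in wild type, beside 3413 and 6542 to 7269 counts of PSMC2. PSMC5, another of the ATPases, measured 268 CPM in the library labelled ARID1B shRNA, against 335, 328 and 336 CPM, and lay below 3 wild-type values that differed little (log2 fold change -0.32, SE 0.15, edgeR adjusted p = 0.258).

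PSMD3, a scaffold subunit of the lid, had the largest positive value of the group. It measured 290 CPM in the library labelled ARID1B shRNA, against 191, 184 and 223 CPM in wild type 1, 2 and 3. It lay above all of them, with a log2 fold change of 0.54 (SE 0.18, edgeR adjusted p = 0.138), and 0.43 with the trend removed (0.145). PSMD2, a scaffold that docks ubiquitin-like domains, was the most abundant member in CPM, with 1072 CPM in the library labelled ARID1B shRNA and 924 ± 26.5 CPM in wild type (SD, n = 3). Its log2 fold change was 0.21 and turned to -0.02 with the trend removed. PSMD1, the other large scaffold of the base, measured 273 CPM in the library labelled ARID1B shRNA, against 345, 357 and 345 CPM, below all of them (log2 fold change -0.35, SE 0.15, edgeR adjusted p = 0.222). With the trend removed its value was -0.17 and it stayed below all of them, while PSMD2 lay inside the wild-type range. PSMD14, the deubiquitinase that strips ubiquitin chains, measured 266 CPM against 210, 272 and 233 CPM. Its log2 fold change was 0.16 as measured and 0.48 with the trend removed (edgeR adjusted p = 0.139). PSMD4, a ubiquitin receptor, measured 257 CPM in the library labelled ARID1B shRNA and 250 ± 5.29 CPM in wild type, a log2 fold change of 0.04 with a 95% interval from -0.34 to 0.41.

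The alternative activators and the inhibitor also stayed without a call. PSME3, the nuclear activator PA28 gamma, measured 150 CPM in the library labelled ARID1B shRNA, against 214, 217 and 203 CPM in wild type 1, 2 and 3. It lay below all of them and had the smallest p of all members (log2 fold change -0.50, SE 0.16, unadjusted p = 0.0223, edgeR adjusted p = 0.135). PSME4, a large nuclear activator, measured 188 CPM against 193, 226 and 201 CPM. PSMF1, which binds the core as PI31, measured 113 CPM in the library labelled ARID1B shRNA and 113 ± 9.62 CPM in wild type.

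Among the assembly factors 0 of 7 genes had an edgeR adjusted p below 0.05, beside 4.48% of all tested genes. The summed level was 309 CPM in the library labelled ARID1B shRNA, against 408, 380 and 309 CPM in wild type 1, 2 and 3. The median wild-type coefficient of variation was 13.4%, against 11.2% in the immunoproteasome group, 7.39% in the core and 6.54% in the regulatory group. The intervals lay within 2-fold for 3 of the 7. PSMG1 to PSMG4, the chaperones of the alpha ring, had log2 fold changes of -0.02, -0.33, 0.43 and 0.34. PSMG2, the partner of PSMG1, measured 48.0 CPM in the library labelled ARID1B shRNA, against 62.2, 59.9 and 59.2 CPM in wild type, below all of them (edgeR adjusted p = 0.303). PSMG3 measured 39.2 CPM, against 31.4, 22.8 and 33.1 CPM, and its partner PSMG4 measured 16.1 CPM, against 11.9, 12.1 and 14.0 CPM. Both lay above all wild-type libraries, and PSMG3 turned to -0.18 with the trend removed.

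The chaperones of the regulatory particle's base differed in direction. PSMD5 measured 81.1 CPM in the library labelled ARID1B shRNA, against 137, 128 and 105 CPM in wild type 1, 2 and 3, below all of them (log2 fold change -0.61, SE 0.22, edgeR adjusted p = 0.157). It was the only member with a call in any alternative, at an edgeR adjusted p of 0.0449 with no filter on low counts, over a range of 0.0449 to 0.262. PSMD9 measured 8.44 CPM in the library labelled ARID1B shRNA, against 2.87, 4.33 and 4.82 CPM, above all of them (log2 fold change 1.07, SE 0.39, edgeR adjusted p = 0.162). It rested on 74 counts in the library labelled ARID1B shRNA and on 37, 56 and 74 counts in wild type.

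PSMD10, or gankyrin, encoded on the X chromosome and named here after its values were seen, varied within wild type. It measured 47.0 CPM in the library labelled ARID1B shRNA, against 88.2, 81.4 and 30.1 CPM in wild type 1, 2 and 3. The library labelled ARID1B shRNA lay between library 3 and the other wild-type libraries, and the wild-type values differed 2.93-fold. The log2 fold change was -0.50 (SE 0.63, edgeR adjusted p = 0.654); leaving out wild-type library 3 gave -0.86 (0.109). PSMB10, PSMD10 and PSMD9 were the tested members whose wild-type libraries differed by more than 1.5-fold, and the other 42 lay within that.

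**Figure D3:**
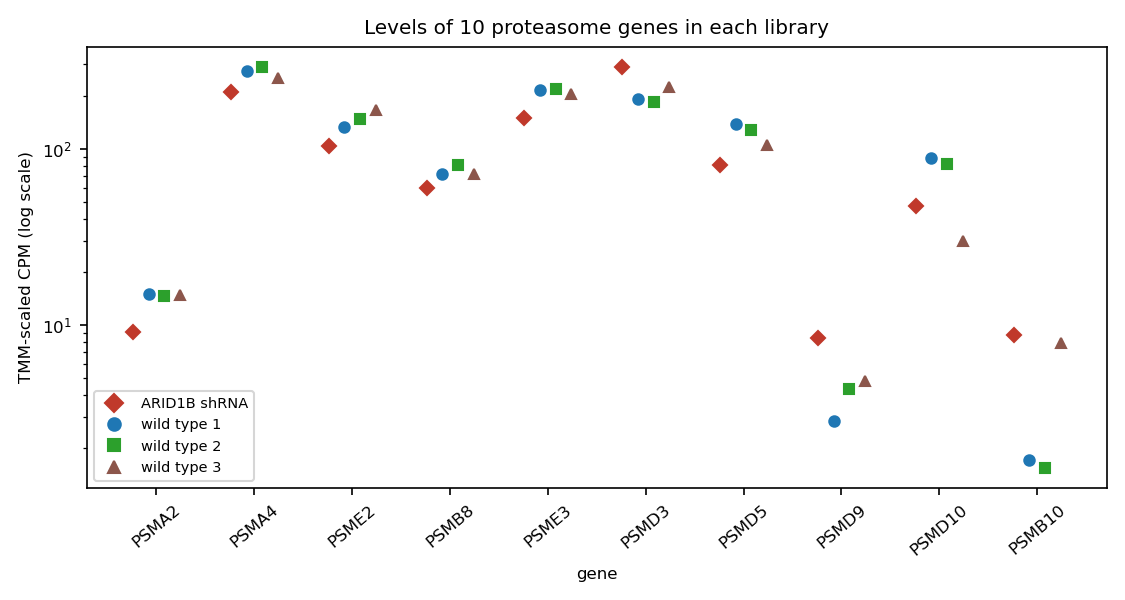
Library-scaled CPM on a log axis for 10 proteasome genes, with 1 point per library. The library labelled ARID1B shRNA (diamonds) lies below every wild-type library for PSMA2, PSMA4, PSME2, PSMB8, PSME3 and PSMD5 and above them for PSMD3, PSMD9 and PSMB10, while PSMD10 and PSMB10 differ between wild-type libraries.

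Counting whole groups, the library labelled ARID1B shRNA lay above all 3 wild-type libraries in 11 of 45 members, where 35.4% of all tested genes did, and below all 3 in 19, where 37.9% did. In the core 2 lay above and 8 below, and in the regulatory group 5 lay above and 7 below. With the trend removed 12 members lay above and 21 below, beside 31.2% and 39.8% of all tested genes. Of these, 4 members (PSMA5, PSMD3, PSMD9 and PSMG4) lay above and 14 below in both settings. Another 5 (PSMA7, PSMC3, PSMD4, PSMD8 and PSMG3) turned from above to below, and PSMC6 and PSME4 turned from below to above.

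Levels of different subunits were compared per kilobase of the longest transcript. In wild type the group medians were 144 CPM per kilobase in the core, 84.4 in the regulatory group, 31.7 in the immunoproteasome group and 32.4 among the assembly factors. The library labelled ARID1B shRNA had medians of 136, 89.9, 25.2 and 28.2 CPM per kilobase in the same order. PSMB7 was highest at 484 ± 5.73 CPM per kilobase in wild type and PSMD9 lowest at 1.31 ± 0.33. With the length of the principal transcript, an alternative added after the data were seen, the immunoproteasome median was 66.8 and the regulatory median 106 CPM per kilobase.

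Of the tested members, 5 shared over 10% of their annotated exonic bases with another gene on the same strand: PSMA1, PSMA2, PSMA6, PSMB10 and PSMD9. This grouping was made after their low levels were seen. Their wild-type levels were 1.31 to 20.1 CPM per kilobase, against 61.8 to 484 for the other 10 tested core genes and 2.75 (PSMG4) to 484 for the other 40 tested members, so the ranges overlapped. The medians were 3.47 for the 5 and 75.8 for the other 40, or 9.93 and 105 with the principal transcript. Reads that fall on 2 genes are set aside as ambiguous in the default mode of HTSeq, and the mode used is not given in the sources used here. Ambiguous reads made up 6.75% of genic, ambiguous and unassigned reads in the library labelled ARID1B shRNA and 5.93% to 6.25% in wild type. The part of such reads in these levels was not tested, and the sharing was read from an annotation of GRCh38 where the authors used GRCh37. PSMA6 also has a processed copy with as many reads as itself: PSMA6P1 had 251 counts in the library labelled ARID1B shRNA and 352, 513 and 463 in wild type, beside 250 and 329, 370 and 458 counts of PSMA6. The level of PSMA6 is therefore uncertain, at 28.5 CPM in the library labelled ARID1B shRNA, against 25.5, 28.6 and 29.8 CPM, with a log2 fold change of 0.03 (SE 0.22, edgeR adjusted p = 0.949). Of 44 pseudogene copies of members in the files, all processed copies except PSMD12P1, 25 had 0 counts in every library. PSMD12P1, PSMC1P1 and PSMD7P1 had 44, 21 and 16 counts in the library labelled ARID1B shRNA and 61 to 104, 19 to 26 and 21 to 32 in wild type, beside 1570, 2200 and 869 counts of PSMD12, PSMC1 and PSMD7 in the library labelled ARID1B shRNA. PSMC1 measured 251 CPM in the library labelled ARID1B shRNA, against 308, 272 and 247 CPM in wild type 1, 2 and 3, with a log2 fold change of -0.14 (SE 0.19, edgeR adjusted p = 0.681). PSMD7, a lid subunit that pairs with PSMD14, measured 99.1 CPM, against 91.6, 102.7 and 92.6 CPM, with a log2 fold change of 0.05 (SE 0.17, edgeR adjusted p = 0.875). PSMD12 measured 179 CPM, against 157, 199.5 and 167 CPM, with a log2 fold change of 0.04 (SE 0.20, edgeR adjusted p = 0.924). All 3 lay inside the wild-type range.

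Of the genes around the proteasome reported here, 4 passed the test. Among 12 associated proteins 1 rose and none fell, where 3.65% of all tested genes rose and 0.834% fell. ADRM1, a ubiquitin receptor of the regulatory particle without a PSM symbol, measured 130 CPM in the library labelled ARID1B shRNA, against 35.4, 33.5 and 44.1 CPM in wild type 1, 2 and 3. It lay above all of them, 3.46-fold higher in the fit (log2 fold change 1.79, SE 0.21, edgeR adjusted p = 0.0214). With the trend removed the value was 0.41 and did not pass (edgeR adjusted p = 0.212). Leaving out wild-type library 2 put it at the threshold (edgeR adjusted p = 0.05002). ZFAND2A, a zinc finger protein that binds the proteasome under arsenite stress, measured 41.7 CPM in the library labelled ARID1B shRNA, against 20.4, 19.1 and 21.3 CPM. Its log2 fold change of 1.04 (SE 0.20) missed the threshold (edgeR adjusted p = 0.0507), and it passed with the trend removed (log2 fold change 1.198, edgeR adjusted p = 0.0308). AKIRIN2, which helps import proteasomes into the nucleus, measured 62.5 CPM, against 33.8, 32.2 and 27.8 CPM (log2 fold change 1.00, SE 0.20, edgeR adjusted p = 0.0553). POMP, the chaperone that closes core assembly, measured 106 CPM in the library labelled ARID1B shRNA, against 134, 162 and 132 CPM (edgeR adjusted p = 0.238).

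Of the 12 genes reported here that control subunit transcription or process NFE2L1, 3 rose and none fell, beside the same shares of all tested genes. NFE2L1 measured 509 CPM in the library labelled ARID1B shRNA, against 215, 219 and 270 CPM in wild type 1, 2 and 3. It lay above all of them, with a log2 fold change of 1.12 (SE 0.18, edgeR adjusted p = 0.0360) and 0.78 with the trend removed (0.0452). Its call ended without wild-type library 2 (0.0774). The small MAF proteins pair with it on the antioxidant response element. MAFK measured 32.1 CPM in the library labelled ARID1B shRNA, against 2.10, 1.39 and 3.32 CPM in wild type (log2 fold change 3.80, SE 0.42). Its edgeR adjusted p was 0.0210, and it passed both after trend removal, where its log2 fold change was 2.54 (0.0163), and when any 1 wild-type library was left out (0.00750 to 0.0490). MAFG measured 193 CPM, against 54.0, 77.8 and 76.5 CPM (log2 fold change 1.47, SE 0.24, edgeR adjusted p = 0.0350). Its call ended with the trend removed (0.121) and without wild-type libraries 2 (0.0639) and 3 (0.0792).

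IRF1, a transcription factor that drives immunoproteasome genes, measured 173 CPM in the library labelled ARID1B shRNA, against 55.6, 92.4 and 106 CPM (edgeR adjusted p = 0.150). VCP, the segregase that draws NFE2L1 out of the endoplasmic reticulum, measured 1074 CPM in the library labelled ARID1B shRNA, against 1148, 1036 and 1013 CPM, and lay inside the wild-type range. Whether genes around the proteasome changed more than the proteasome genes was not tested.

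**Figure D4:**
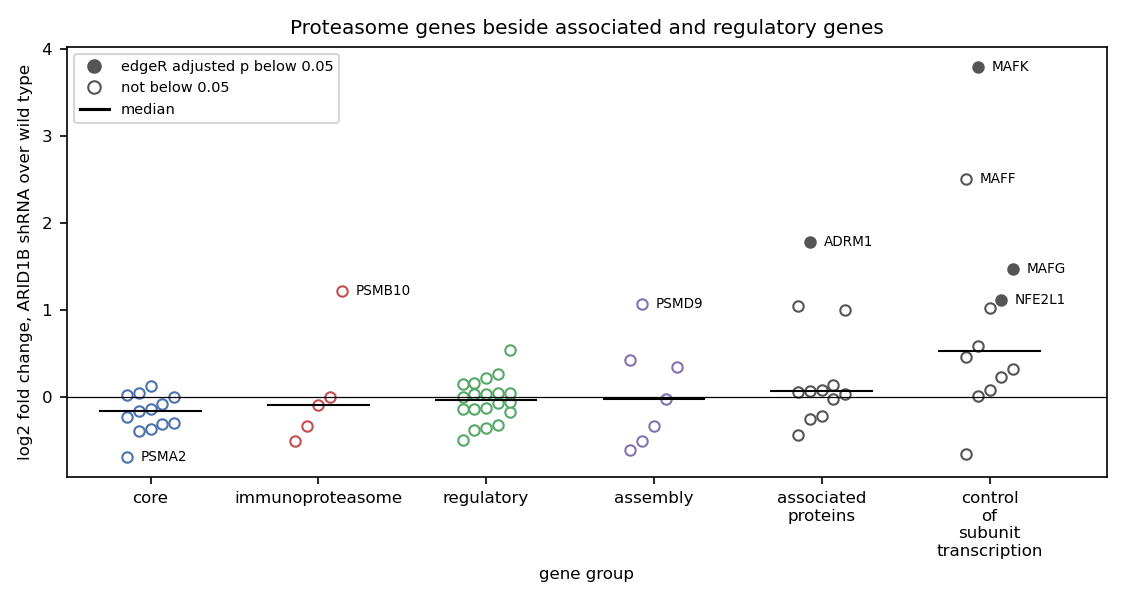
Log2 fold change of the library labelled ARID1B shRNA over wild type for each tested gene of the 4 proteasome groups and of 2 related lists, for the genes reported here; filled points had an edgeR adjusted p below 0.05 and bars are medians of the points. The filled points are ADRM1, MAFK, MAFG and NFE2L1, and none belongs to the proteasome groups.

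GC content moved with fold change over all genes, with median log2 fold changes of -0.30 in the lowest decile of GC content and 1.32 in the highest. The members ran from 32.0% (PSMD14) to 60.1% (PSMB10), and none fell in the highest decile. Across the 45 members Spearman's correlation of log2 fold change with GC content was 0.37, against 0.47 over all tested genes, and -0.28 and -0.03 with the trend removed. Genes share the 4 libraries and are not independent replicates. The part of GC content in single values was not tested beyond the removal of the trend, under which 0 of 45 members were called, beside 3.17% of all tested genes, 1.97% higher and 1.2% lower. At an unadjusted p below 0.05 there were then 3 members higher and 5 lower, beside 23.9% of all tested genes.

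**Figure D5:**
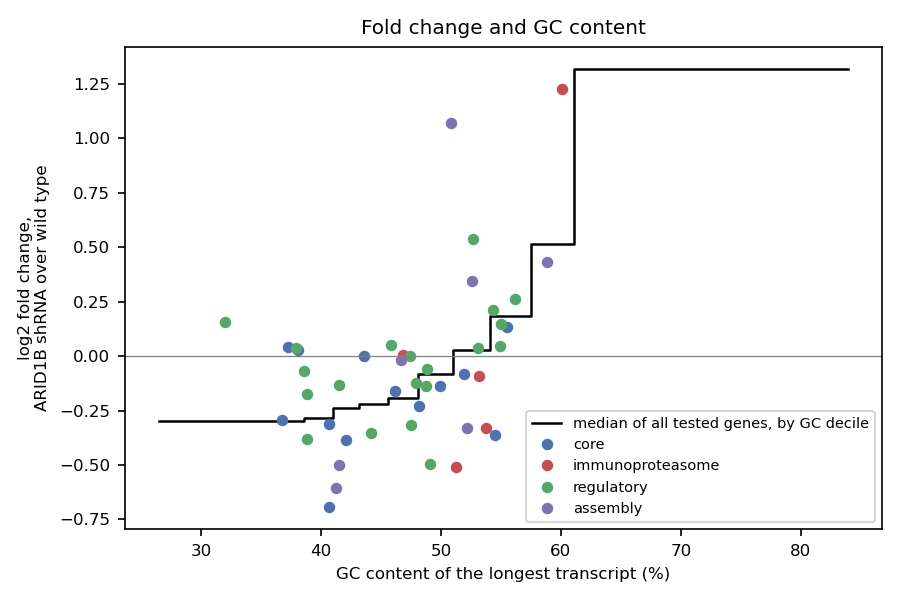
Log2 fold change of the library labelled ARID1B shRNA over wild type against the GC content of the longest transcript, for 45 proteasome genes by role; the stepped line is the median of all tested genes in each decile of GC content. The line climbs to 1.32 in a range of GC content where no proteasome gene lies.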

How the data were processed

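The authors deposited raw read counts for each gene, with a file for every library. The submitters' processing notes name GRCh37 (hg19) and the tools HISAT2, HTSeq, bcl2fastq and DESeq2. Not given in the sources used here are their versions, the strand setting and the annotation release, so reads of overlapping or antisense genes are uncertain. Groups came from the sample titles. The 5 summary lines closing each file belong to no gene and entered nothing. Reads outside genes were 5.27% in the library labelled ARID1B shRNA and 7.07% to 7.65% in wild type. Of the identifiers 90.5% matched GENCODE 29 (GRCh38), which gave gene types, lengths and GC content.

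Genes were kept by filterByExpr (minimum count 10, minimum total 15), scaled by TMM and tested with glmQLFit (robust) and glmQLFTest in edgeR 4.0.16 (R 4.3.3), with Benjamini-Hochberg adjustment over all tested genes and a threshold of 0.05. An SE is the absolute log2 fold change over the square root of F. Alternatives were RLE and upper-quartile scaling, other filters, DESeq2 1.42.0, limma-voom (limma 3.58.1), a loess trend (span 0.3) on GC content and length removed through offsets, and each wild-type library left out. The procedure was tested on simulated data. No 2 libraries were duplicates: log-CPM correlated at 0.920 to 0.945 between the library labelled ARID1B shRNA and wild type and at 0.966 to 0.980 within wild type. The file for ARID1B shRNA is numbered apart from the others; if it was prepared separately, batch and group cannot be told apart.

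The members and lists were chosen with earlier results of these data known. Full values are given for any member that passed, the 2 smallest p of each group, the catalytic pairs and the members whose pseudogene copies held the most reads; of the related lists, the genes that passed are named, except genes not reported here, with ZFAND2A, AKIRIN2, POMP, IRF1 and VCP, and other members, added after their values were seen.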

Additional observations from a re-analysis of the deposited data

How the results depend on the processing

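Over the 10 alternatives run for each of the 45 tested members, 1 of 450 results had an adjusted p below 0.05, that of PSMD5 with no filter on low counts (log2 fold change -0.63, edgeR adjusted p = 0.0449), so 1 member and 1 assembly factor were called there against 0 as reported. The log2 fold change kept its sign under all 10 alternatives for 24 of the 45 members. The count over all genes, 763 as reported, was 3226 with no filter, 1775 with DESeq2 and 157 to 1189 without single wild-type libraries (157 without library 2, 1189 without library 1, 478 without library 3). The core median log2 fold change was -0.13 with RLE factors or DESeq2, -0.28 with upper-quartile scaling, -0.18 with no filter, -0.14 with limma-voom, -0.090 with the trend removed and -0.23 to -0.12 without single wild-type libraries. Upper-quartile scaling moved the median of all tested genes by -0.12, and the core median relative to it stayed at -0.11; relative to all tested genes it was 0.088 with no filter, which moved their median by -0.22, and -0.010 with the trend removed. The regulatory median was -0.00058 with RLE factors and with DESeq2, -0.15 with upper-quartile scaling and -0.060 with PSMD5, PSMD9 and PSMD10 counted there. The assembly median, -0.02 as reported, was -0.14 with upper-quartile scaling, -0.18 with the trend removed, 0.16 without those 3 genes and -0.088 to 0.035 without single wild-type libraries; the cause was not tested. The difference in the log2 ratio of PSMB8 to PSMB5 was -0.37 with the trend removed, against -0.25. For PSMB9 to PSMB6 it was 0.66 against 0.38, and for PSMB10 to PSMB7 it was 0.90 against 1.81. The ratio of PSMB10 to PSMB7 in the library labelled ARID1B shRNA then lay inside the wild-type range. The summed difference with the trend removed was -0.033 for the core and -0.039 for all members. With the principal transcript's length the immunoproteasome and regulatory levels were 66.8 and 106 CPM per kilobase. No paired analysis was possible because the library labelled ARID1B shRNA is alone in its group and carries no replicate number. Depth limits PSMB10 and PSMD9 most, with 20 to 121 and 37 to 74 counts per library.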
